A study of Homo sapiens with 8 samples.

Results

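Homologous recombination and Fanconi anaemia repair genes were followed in sorted cells of 4 human lung cancer cell lines. A set of 34 genes was listed, and a gene was measured through the brightest probe set, by mean log2 signal over all 8 arrays, whose only gene symbol in the platform annotation was that gene. By this rule 30 of the 34 genes were measured, among 19775 genes in all, and all 30 lay in the upper range of signal used for testing (12312 genes). BRCA2, RBBP8, FANCA and FANCD2 had no probe set named by that rule and were not analysed here.

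The cells were the non-small cell lung cancer lines A549 and H460, which carry mutant K-Ras, and H1650 and H1975, which carry mutant EGFR. From each line the side population (SP), the few cells that pump out the Hoechst dye, and the main population (MP), the cells that keep it, were sorted by flow cytometry. The RNA of each fraction was hybridised to 1 Affymetrix HG-U133 Plus 2.0 array, so that SP and MP were each measured on 4 arrays, 1 from every line, with no treatment in any of them. A comparison of SP with MP therefore has 4 pairs, and a cell line has 2 arrays, its SP and its MP. No label says that these came from separate cultures, so p-values measure only the spread between these arrays, and the differences between lines are set against the spread between 2 sorted fractions of a line. Levels are log2 MAS5 signals and differences are log2 ratios; an array signal does not rank one gene against another.

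Homologous recombination repairs a broken chromosome by copying the sister chromatid. The MRN complex and ATM sense the break, nucleases trim its ends, and BRCA1, PALB2 and the strand exchange proteins lead the trimmed strand to its template. The Fanconi core complex attaches ubiquitin to the FANCI and FANCD2 pair at DNA crosslinks, which hands the lesion to the same machinery. ATR, CHEK1 and CLSPN hold back the cell cycle when replication forks stall. Most of these genes are used in S and G2 phase, so levels in a bulk sample move with the share of cycling cells as well as with RNA per cell, and the 2 cannot be told apart in these data.

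Values that bear on the samples as a whole come first. Every array had a trimmed mean linear signal of 500.1, and the median log2 signal lay between 5.92 and 6.29. The epithelial keratins were bright in every array, while the epithelial markers EPCAM and CDH1 were low in H460, EPCAM at 5.97 in SP and 5.25 in MP, and CDH1 at 1.61 in SP and 0.63 in MP. Of 7 markers of blood, endothelial and stromal cells, PTPRC, CD3E and VWF lay below the tested range and 4 passed it. The 7 markers summed to a log2 level of 10.30 to 13.01 in SP and 10.14 to 13.07 in MP, highest in H1975. The collagen gene COL1A1 had 12.94 in SP there, with an SP over MP ratio (log2) of -0.06. Another collagen gene, COL3A1, went the other way, at 3.93 in SP and 4.71 in MP of H1975 and 10.45 and 10.60 in H460. Its SP over MP ratio (log2) was 1.38 in H1650. The log2 difference between 3′ and 5′ probe sets of ACTB ranged from 0.23 to 0.65, lowest in H1650. ABCG2, a dye transporter known from side populations, gave SP over MP ratios (log2) of 1.08 (A549), 0.36 (H460), 1.17 (H1975) and -0.70 (H1650). On these arrays the SP label of H1650 thus goes against ABCG2. By qRT-PCR, with ABCG2 as a control for SP, the paper reports its signature genes moving the same way in SP of every line. The labels were kept, directions in H1650 rest on them, and SP results are given with and without that line. H1650 was set apart with earlier results of these data known, in which it moved against the other lines. The results without H1650, the pattern of opposite sign in H1650 and the H1650 interaction are descriptions for that reason.

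Promoter sequences of 5 of the genes are shown first, because the later results turn on these genes, through their levels between lines or their ratios between populations. The windows run from 250 bases before to 30 bases after the start, from RefSeq on GRCh38.p14, and capitals mark a match, on either strand, to an E2F site (TTTCCCGC, TTTGGCGC, TTTCGCGC or TTTGCCGC) or to CCAAT, the box bound by NF-Y. CLSPN, the adaptor that carries the ATR signal to CHEK1 (chr1:35769949-35770228, minus strand), and EXO1, the exonuclease of end trimming (chr1:241847954-241848233, plus strand), hold 1 E2F match each, and CLSPN also 3 CCAAT matches. BLM, the helicase of Bloom syndrome (chr15:90717096-90717375, plus strand), and CHEK2, the kinase under ATM (chr22:28741791-28742070, minus strand), hold 3 CCAAT matches each and no E2F match. BARD1, the partner of BRCA1 (chr2:214809654-214809933, minus strand), holds neither.
CLSPN: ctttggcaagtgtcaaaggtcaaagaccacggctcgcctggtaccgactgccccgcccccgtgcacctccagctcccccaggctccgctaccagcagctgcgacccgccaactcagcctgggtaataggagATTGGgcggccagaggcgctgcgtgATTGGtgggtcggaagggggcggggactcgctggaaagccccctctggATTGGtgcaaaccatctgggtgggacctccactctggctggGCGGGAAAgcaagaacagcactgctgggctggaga
EXO1: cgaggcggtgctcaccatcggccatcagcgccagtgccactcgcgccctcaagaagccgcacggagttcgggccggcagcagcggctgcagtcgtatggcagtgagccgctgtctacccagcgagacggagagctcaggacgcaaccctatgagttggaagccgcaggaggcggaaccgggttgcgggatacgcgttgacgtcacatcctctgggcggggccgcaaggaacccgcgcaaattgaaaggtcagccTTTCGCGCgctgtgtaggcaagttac
BLM: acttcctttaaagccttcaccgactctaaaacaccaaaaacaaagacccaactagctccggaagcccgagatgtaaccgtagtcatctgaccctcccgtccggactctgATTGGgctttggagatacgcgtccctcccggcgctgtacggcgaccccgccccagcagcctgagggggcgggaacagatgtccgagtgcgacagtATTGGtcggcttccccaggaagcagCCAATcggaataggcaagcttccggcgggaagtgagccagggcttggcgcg
CHEK2: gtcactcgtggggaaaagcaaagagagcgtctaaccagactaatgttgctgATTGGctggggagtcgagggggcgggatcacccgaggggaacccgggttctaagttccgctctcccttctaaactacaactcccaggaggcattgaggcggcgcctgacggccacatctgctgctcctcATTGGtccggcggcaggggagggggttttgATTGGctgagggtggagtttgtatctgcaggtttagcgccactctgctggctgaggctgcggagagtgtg
BARD1: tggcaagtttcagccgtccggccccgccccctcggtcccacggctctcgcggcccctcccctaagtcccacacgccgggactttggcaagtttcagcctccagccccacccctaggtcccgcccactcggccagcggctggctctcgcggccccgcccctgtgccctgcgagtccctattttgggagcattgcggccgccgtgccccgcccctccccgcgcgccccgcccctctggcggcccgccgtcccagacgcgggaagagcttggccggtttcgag

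A window was given for 26 of the 30 measured genes, the others being RAD54B, FANCI, WRN and NBN. An E2F match lay in 5 of the 26 (19.2%: CLSPN, EXO1, FANCC, TOPBP1 and XRCC2), against 6.36% of tested genes, 3.82% of all 27305 genes with a window and 69.6% of the S phase list. CCAAT lay in 13 of the 26 (50%), against 42.6% of tested genes and 87% of the G2 and M phase list. The cell cycle genes homology region (TTTGAA or TTCGAA) lay in 3 of the 26 (11.5%), against 15.1% of tested genes and 69.6% of the G2 and M phase list. For E2F the share in the repair genes thus lay between that of all tested genes and that of the S phase list. A match is a description of the window and not a site of binding.

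The first comparison asked which repair genes were expressed at different levels in the 4 lines. Of the 30 genes, 17 differed between the lines (56.7%; limma F test with Benjamini-Hochberg adjustment over all tested genes, population as a covariate), where 76.2% of all tested genes did. The median distance between the highest and the lowest line was 0.89 for the 30 genes and 1.13 for all tested genes, on the log2 scale. Against the mean of the other 3 lines, 8 of the 30 were called in A549 (43.7% of all genes), 8 in H460 (51%), 10 in H1650 (51%) and 17 in H1975 (51.9%). In A549 BRCA1, RAD51C, FANCG, FANCI and RAD50 were higher (5 genes, 22.4% of all genes) and BARD1, ATM and CHEK2 lower (3 genes, 21.3%). In H460 FANCI, EXO1, RAD50 and CHEK2 were higher (4 genes, 24.1%) and BRIP1, RAD54B, MRE11 and TOPBP1 lower (4 genes, 26.8%). In H1650 BARD1, RAD51C, FANCL, NBN and CHEK1 were higher (5 genes, 25.1%) and WRN, EXO1, MRE11, RAD50 and ATM lower (5 genes, 25.8%). The H1975 share of 56.7% was the only one of the 4 above that of all genes. There BRIP1, RAD52, FANCE, WRN, MRE11, ATM and CHEK2 were higher (7 genes, 23.3% of the 30 against 28.1% of all genes) and BRCA1, RAD51C, FANCG, FANCL, FANCI, EXO1, RAD50, NBN, CHEK1 and CLSPN lower (10 genes, 33.3% against 23.8%). Both H1975 arrays lay above the 6 others for 8 of the 30 genes (19.3% of all genes) and below them for 7 (15.4%). With a line reduced to 1 array, fewer of the 30 genes were called in A549, H460 and H1975. Without the H1975 MP array fewer of all genes were called there too. The H1975 share of the 30 genes was then no longer above that of all genes.

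**Figure D1:**
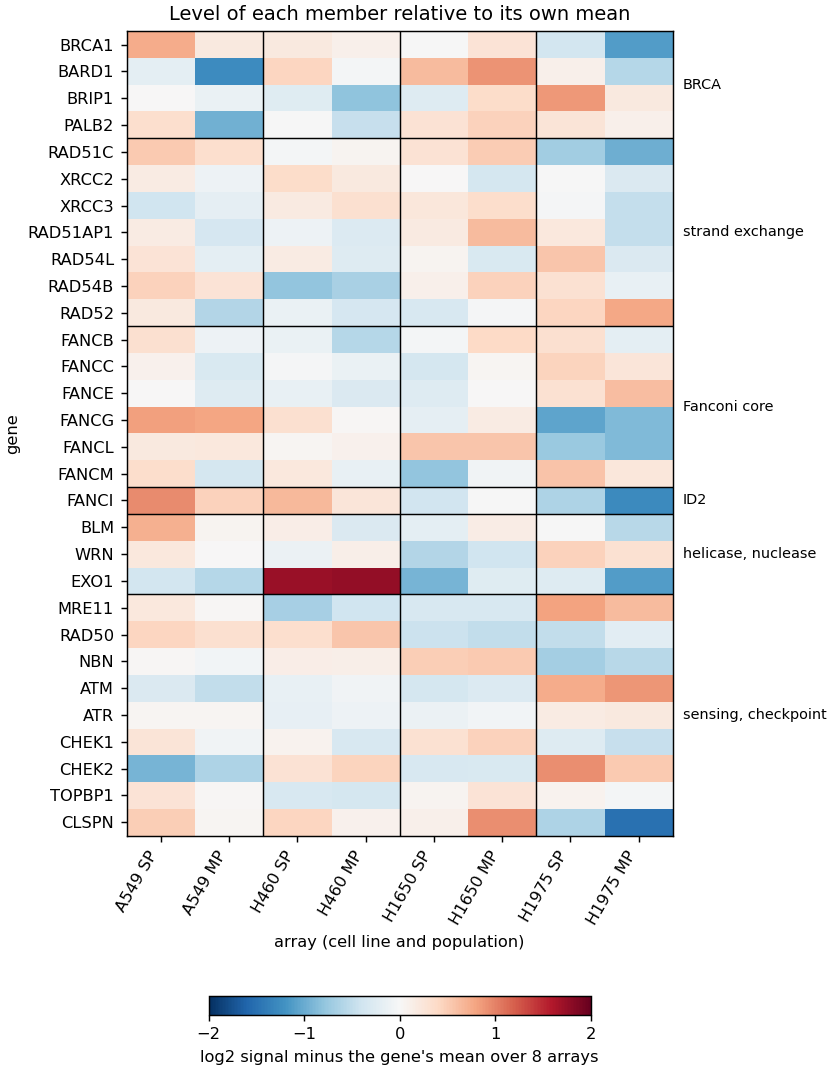
Log2 signal of the 30 measured genes, grouped by role, on the 8 arrays, each gene shown as its difference from its own mean over all arrays (colour scale in log2 units). The SP and MP columns of a line sit side by side and often carry the same colour. EXO1 is deepest red in both H460 columns, at 11.76 in SP and 11.79 in MP, and CLSPN and FANCI are blue in both H1975 columns.

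Among BRCA1 and its partners, BRCA1 and BARD1 differed between the lines. BRCA1, the ubiquitin ligase and scaffold of end trimming, had log2 signals of 10.07 in SP and 9.33 in MP of H1975, against 11.18 and 10.64 in A549, 10.64 and 10.54 in H460 and 10.43 and 10.71 in H1650. Both H1975 arrays lay below the 6 others, with a mean difference from the other lines of -0.99 ± 0.20 (SE; limma adjusted p = 0.0043), and A549 was higher by 0.62 ± 0.20 (limma adjusted p = 0.0354). BARD1 had 9.81 in SP and 8.74 in MP of A549, 10.44 and 9.96 in H460, 10.63 and 10.91 in H1650 and 10.10 and 9.43 in H1975. It was lower in A549, at -0.97 ± 0.23 from the other lines (limma adjusted p = 0.0128), so that BRCA1 was called higher and its partner lower in that line. BARD1 was also higher in H1650, by 1.03 ± 0.23 (limma adjusted p = 0.00833), a call lost without the H1650 MP array (0.52, limma adjusted p = 0.0747). BRIP1, a helicase that binds BRCA1, did not pass the test over the 4 lines (limma adjusted p = 0.0638), nor did PALB2, which bridges BRCA1 to BRCA2 (limma adjusted p = 0.197).

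In the strand exchange group 2 of 7 genes differed between the lines, RAD51C and RAD54B, against 76.2% of all tested genes. RAD51C, which loads the recombinase onto single strands, had 9.89 in SP and 9.59 in MP of H1975, against 11.10 and 10.91 in A549, 10.54 and 10.63 in H460 and 10.87 and 11.08 in H1650. It was lower in H1975, at -1.12 ± 0.13 (limma adjusted p = 0.000364), with both arrays below the 6 others. A second RAD51C probe set did not share this, with a difference of 0.07, and the mean of both sets gave -0.52 (limma adjusted p = 0.0221). RAD54B, a DNA-dependent motor protein, was lower in H460, at -0.95 ± 0.19 (limma adjusted p = 0.0045). XRCC2, XRCC3, RAD51AP1, RAD54L and RAD52 did not pass the F test, and RAD54L, the motor related to RAD54B, had the smallest distance between lines of any gene in the set, 0.26 (1.2-fold).

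In the Fanconi group FANCG, FANCL and FANCI differed between the lines, where 76.2% of all tested genes did, and each of these genes was lowest in H1975. FANCG, a scaffold subunit of the core complex, had 8.46 in SP and 8.62 in MP of H1975, against 10.34 and 10.30 in A549, 9.82 and 9.53 in H460 and 9.34 and 9.67 in H1650. The gap between A549 and H1975 was 1.77 (3.42-fold), and FANCG was higher in A549 (1.08 ± 0.16) and lower in H1975 (-1.29 ± 0.16) than in the other lines (limma adjusted p = 0.00139 and 0.000417). FANCL, the ubiquitin ligase of the complex, had 10.38 in SP and 10.25 in MP of H1975, against 11.32 and 11.34 in A549, 11.17 and 11.21 in H460 and 11.68 and 11.68 in H1650. It was lower in H1975 (-1.08 ± 0.09) and higher in H1650 (0.73 ± 0.09), with SP and MP of a line at most 0.13 apart (limma adjusted p = 9.1e-05 and 0.000556). FANCI, the protein that receives the ubiquitin, had 12.35 in SP and 11.87 in MP of A549, 12.06 and 11.66 in H460, 11.02 and 11.40 in H1650 and 10.79 and 10.14 in H1975. All FANCI arrays of the K-Ras mutant lines lay above all those of the EGFR mutant lines, and the same held for RAD50. This split was not tested, with 2 lines of each, and its share over all genes was not counted, so it says nothing about the mutations. The FANCI contrast of H1975 was -1.26 ± 0.19 (limma adjusted p = 0.00113), and the other FANCI probe sets gave -1.27 and -1.65. FANCB, FANCC, FANCE and FANCM did not pass the F test. FANCC, FANCE and FANCM were highest in H1975, and the FANCE contrast there was 0.62 (limma adjusted p = 0.0412). The genes of the group thus did not move together in H1975. The 6 core complex genes, without FANCI, had a median contrast there of 0.26.

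**Figure D2:**
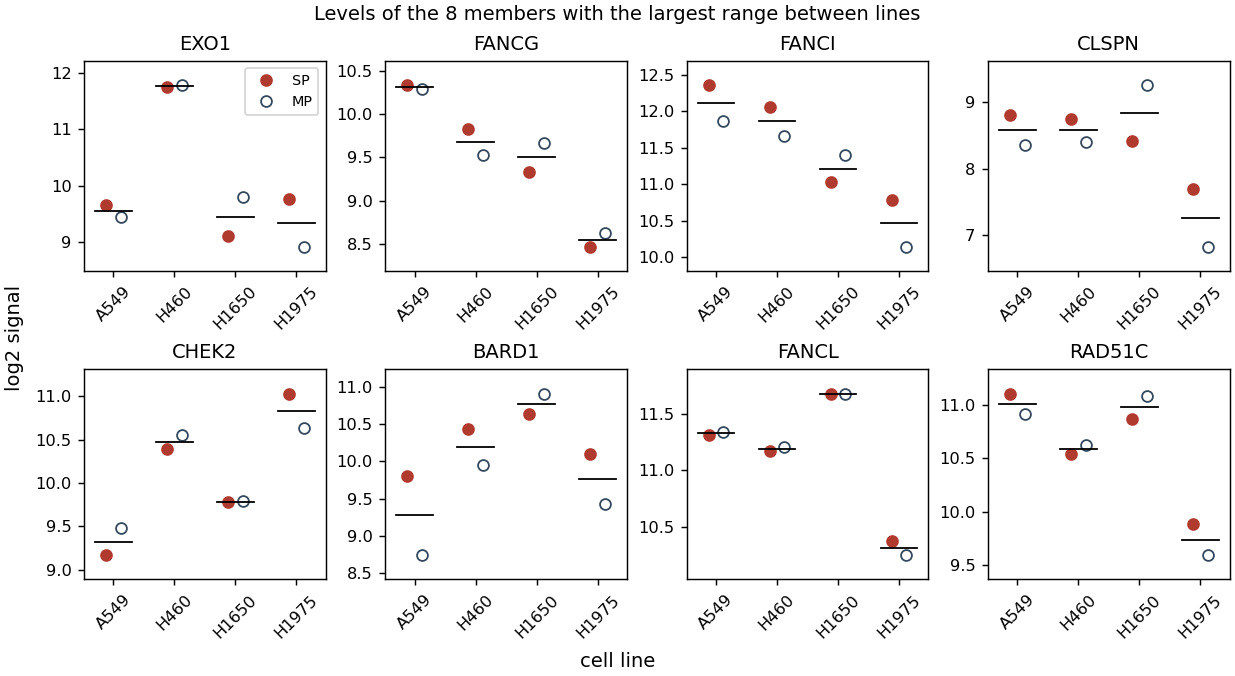
Log2 signal of the 8 genes with the largest distance between line means, with a filled SP point and an open MP point for A549, H460, H1650 and H1975 and a bar at their mean. Each gene has its own axis range. The 2 points of a line lie close together for FANCL and EXO1 in H460, and the lines separate by 1.36 for FANCL and 2.44 for EXO1.

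EXO1 had the widest spread between lines among the 30 genes. This exonuclease, a long-range trimming enzyme with a further role in mismatch repair, had 11.76 in SP and 11.79 in MP of H460, against 9.66 and 9.45 in A549, 9.10 and 9.79 in H1650 and 9.77 and 8.90 in H1975. The H460 arrays lay above all others, by 2.33 ± 0.26 (SE; limma adjusted p = 0.000284), and the distance from H460 to the lowest line was 2.44 (5.42-fold). Of the helicases, WRN, mutated in Werner syndrome, was lower in H1650, at -0.66 ± 0.16 (limma adjusted p = 0.0111), and BLM did not pass the F test (limma adjusted p = 0.189).

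Of the break sensing and checkpoint genes 8 of 9 differed between the lines, all but ATR, where 76.2% of all tested genes did. The 3 subunits of the MRN complex, which binds broken ends, did not move together in H1975: MRE11, the nuclease subunit, was higher by 0.96 ± 0.14 (limma adjusted p = 0.000983), while RAD50, the ATPase, and NBN, the subunit that recruits ATM, were lower, at -0.47 and -0.83 (limma adjusted p = 0.016 and 0.000174). A dimmer MRE11 probe set (mean log2 signal 6.17) went the other way in H1975, at -0.66. ATM had 10.15 in SP and 10.30 in MP of H1975, against 9.12 and 8.93 in A549, 9.26 and 9.34 in H460 and 9.06 and 9.14 in H1650, a rise of 1.08 ± 0.14 (limma adjusted p = 0.000486). CHEK2, which ATM activates, was also highest in H1975, at 11.03 in SP and 10.63 in MP, and lowest in A549, at 9.17 and 9.48, with 10.39 and 10.55 in H460 and 9.78 and 9.79 in H1650. Its contrast was 0.97 ± 0.16 in H1975 and -1.04 ± 0.16 in A549 (limma adjusted p = 0.00158 and 0.0016).

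On the ATR side ATR, like ATM, was highest in H1975 but not called between the lines. CHEK1 and CLSPN were called lower there on their brightest probe sets. ATR, the kinase of stalled forks, had 11.31 in SP and 11.31 in MP of A549, 11.12 and 11.18 in H460, 11.16 and 11.22 in H1650 and 11.45 and 11.48 in H1975. The line means were close, with a distance between lines of 0.31 (1.24-fold; limma adjusted p = 0.1). CHEK1, its target kinase, had 9.89 in SP and 9.70 in MP of H1975, against 10.42 and 10.09 in A549, 10.23 and 9.83 in H460 and 10.46 and 10.62 in H1650. On this brightest probe set it was lower in H1975, at -0.48 (limma adjusted p = 0.0219). Its further probe sets did not share this, at -0.03, 0.32 and 1.68, the first of them of nearly the same mean signal (10.11 against 10.15). CLSPN had 7.70 in SP and 6.82 in MP of H1975, against 8.81 and 8.36 in A549, 8.75 and 8.40 in H460 and 8.42 and 9.25 in H1650. It was lower in H1975, at -1.4 ± 0.31 (limma adjusted p = 0.00692), with both arrays below the 6 others, a call lost without the H1975 MP array (-0.96, limma adjusted p = 0.106). On the brightest probe sets ATM, CHEK2 and MRE11 were thus called higher in H1975 and CHEK1, CLSPN, RAD50 and NBN lower.

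The line calls could be set against other probe sets of the same genes, since 16 of the 30 genes had more than 1 and 24 further sets lay above the median signal. Where a gene was called in A549, 10 of 10 further sets had the same sign, in H460 5 of 6 and in H1650 12 of 14. In H1975 it was 12 of 17, the exceptions being sets of RAD51C, MRE11, NBN and CHEK1, so that for these genes the sign in H1975 depended on the probe set. The ATM rise in H1975 was also seen in its other bright sets, at 1.46 and 1.05. The 14 genes not given array by array had distances between line means from 0.49 (FANCC) to 1.25 (MRE11).

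**Figure D3:**
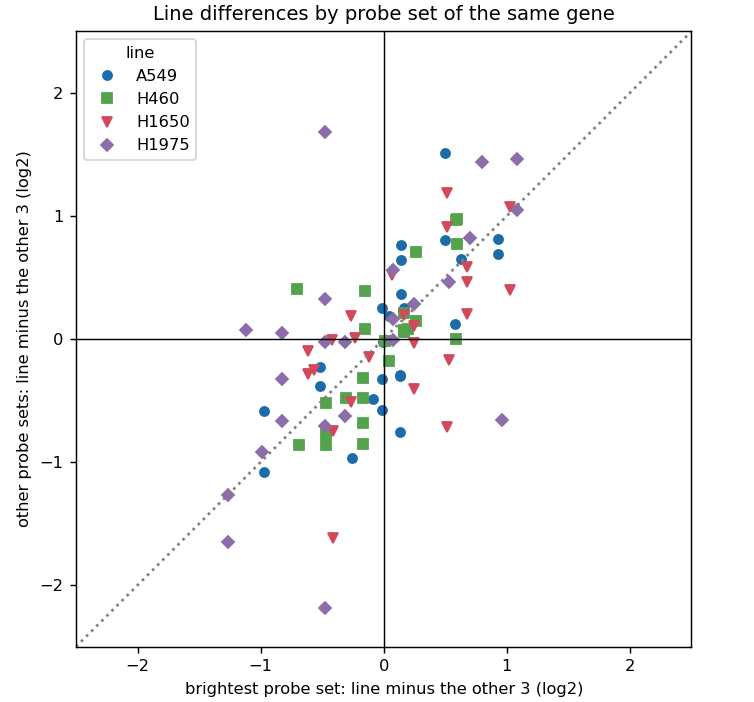
Line contrasts (log2, a line minus the mean of the other 3) of the brightest probe set of each gene on one axis and of its further probe sets above the median signal on the other, by cell line. The dotted line marks equal values, and most points lie in the quadrants where both have the same sign. The H1975 point at 0.96 and -0.66 is MRE11.

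The second comparison asked whether repair genes differed between the dye-excluding and the dye-keeping cells. Over the 4 lines no gene passed the adjusted threshold in limma with the cell line as a block (0 of 12312 and 0 of the 30, 0% of all genes), and at an unadjusted p under 0.05 it was 3.05% of all genes and 2 of the 30, BARD1 and RAD54L. Without H1650, 25 genes passed (0.203%) and none of the 30, while 11 of the 30 (36.7%) had an unadjusted p under 0.05, all of them higher in SP, where 8.11% of all genes were so and 5.38% were lower. The 11 were FANCI, BARD1, RAD51AP1, BLM, BRIP1, BRCA1, RAD54L, CLSPN, PALB2, CHEK1 and FANCM. H1650 was left out with earlier results of these data known, so this count is a description. The smallest adjusted p among the 30 was that of FANCI (limma adjusted p = 0.0847, and 0.0533 to 1 over the alternatives).

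The sign of the ratios varied with the line. In A549 27 of the 30 genes had SP above MP (50.5% of all genes), in H460 19 (45%), in H1975 23 (45.3%), but in H1650 only 3 (48.8%). Their median log2 ratios were 0.26 (A549), 0.13 (H460), 0.29 (H1975) and -0.24 (H1650), where that of all tested genes lay between -0.035 and 0.0039. The pattern of higher in SP of A549, H460 and H1975 and lower in SP of H1650 was held by 13 genes (43.3%, against 13.5% of all genes): BRCA1, BARD1, BRIP1, PALB2, RAD51AP1, FANCB, FANCC, FANCM, FANCI, BLM, CHEK1, TOPBP1 and CLSPN. XRCC2 and RAD54L were higher in SP of all 4 lines (6.67%, against 3.27% of all genes), and no gene of the set was lower in all 4 (6.48% of all genes). Scaling all arrays to the same median moved the median ratio of all genes by -0.16 in A549 and 0.17 in H1975, and the genes with SP above MP then numbered 22 (A549), 18 (H460), 27 (H1975) and 7 (H1650). With that scaling the median ratios of the 30 genes were 0.11 (A549), 0.10 (H460), 0.46 (H1975) and -0.22 (H1650), against -0.15, -0.055, 0.14 and 0.013 for all genes.

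**Figure D4:**
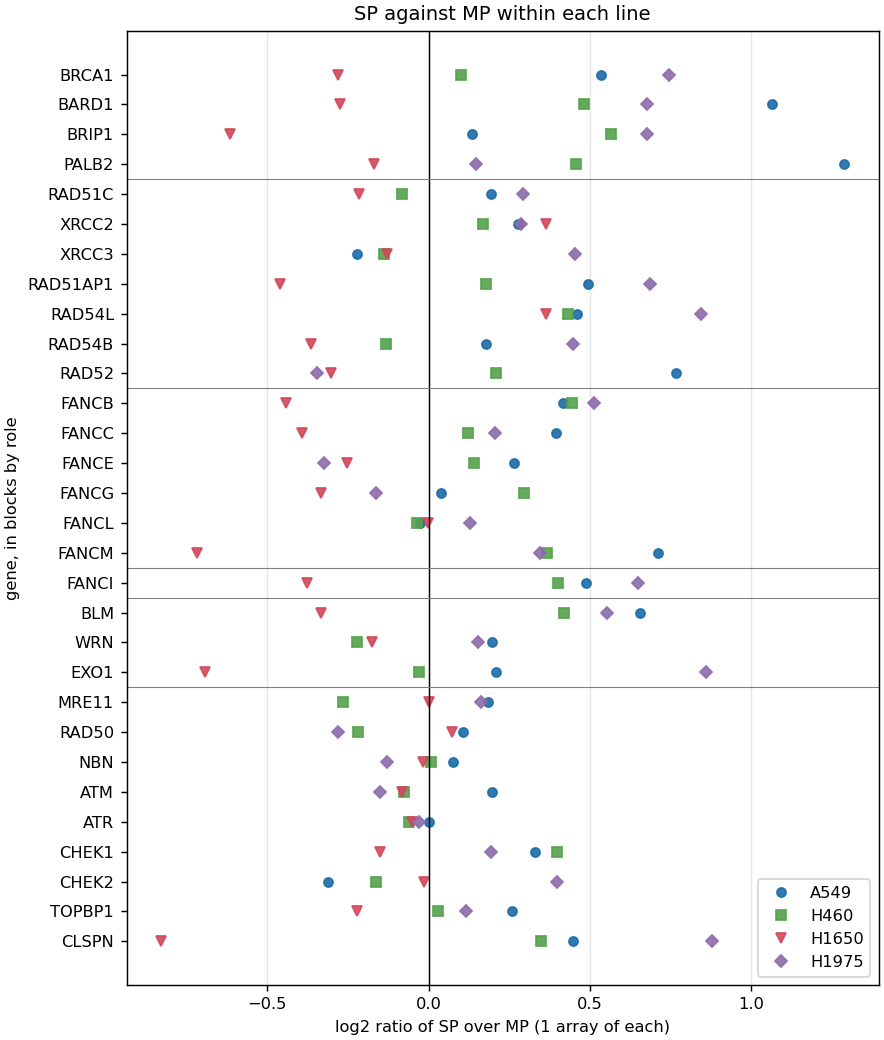
Log2 ratio of SP over MP of each of the 30 genes in the 4 cell lines, grouped by role, with a line at 0. Points of A549, H460 and H1975 lie mostly above 0 and those of H1650 mostly below it, and XRCC2 and RAD54L have all 4 points above 0.

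Few ratios were large. Those of the 14 genes not given array by array ran from -0.72 (FANCM in H1650) to 0.77 (RAD52 in A549). BARD1 and PALB2 were at least 2-fold higher in SP of A549 (2.88% of all genes), and none of the 30 was in H460, H1650 or H1975 (1.98%, 1.03% and 1.78% of all genes). None was at least 2-fold lower in SP of A549, H460, H1650 or H1975 (1.43%, 1.42%, 2.01% and 2.36% of all genes). At 1.5-fold, 5 genes were higher in A549 (9.59% of all genes), 8 in H1975 (5.8%) and 0 in H460 and H1650 (6.75% and 3.22%). At 1.5-fold, 4 were lower in H1650 (6.88%) and 0 in A549, H460 and H1975 (4.63%, 4.3% and 7.38%). With 1 array of each population in a line these folds carry no error.

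By role, BRCA1 and its partners had the largest median of the repair groups in A549, H460 and H1975. Their 4 genes had medians of 0.80 (A549), 0.47 (H460), 0.68 (H1975) and -0.28 (H1650). All 4 had an unadjusted p under 0.05 in the 3 lines without H1650, where 13.5% of all genes did, and none passed the adjusted threshold. BARD1 had ratios of 1.06 (A549), 0.48 (H460), 0.68 (H1975) and -0.27 (H1650), with a mean of 0.74 ± 0.30 in the 3 lines without H1650 (SD, n = 3) and 0.49 ± 0.56 in all (SD, n = 4). Its limma adjusted p was 0.104 in the 3 lines, and with arrays scaled to the same median 0.0352, the only call among the 30 genes in that comparison under the alternatives run. PALB2 differed mainly in A549, with log2 signals of 10.00 in SP and 8.71 in MP there, against 9.66 and 9.20 in H460, 9.95 and 10.12 in H1650 and 9.92 and 9.77 in H1975. Its ratios were 1.29 (A549), 0.46 (H460), 0.15 (H1975) and -0.17 (H1650), with a mean of 0.63 ± 0.59 in the 3 lines (SD, n = 3; limma adjusted p = 0.284). BRCA1 had ratios of 0.53, 0.10 and 0.74 in A549, H460 and H1975 and -0.28 in H1650 (mean of the 3 0.46 ± 0.33, SD; limma adjusted p = 0.245).

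In the strand exchange group the median ratios were 0.28, 0.17 and 0.45 in A549, H460 and H1975 and -0.22 in H1650, and XRCC2 and RAD54L had positive ratios in H1650 as well. RAD54L had 8.18 in SP and 7.72 in MP of A549, 8.08 and 7.64 in H460, 7.96 and 7.60 in H1650 and 8.46 and 7.62 in H1975, a mean ratio of 0.53 ± 0.22 (SD, n = 4) with SP above MP in 4 of 4 lines. XRCC2, a member of the complex that helps the recombinase onto DNA, had 7.90 and 7.62, 8.09 and 7.92, 7.74 and 7.37, and 7.73 and 7.44 in SP and MP of the same lines in that order, and a mean ratio of 0.27 ± 0.08 (SD, n = 4). Neither passed the adjusted threshold over the 4 lines (limma adjusted p = 0.945 each), and both were among the dimmer genes of the set.

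Core complex genes had median ratios of 0.33, 0.22 and 0.17 in A549, H460 and H1975 and -0.36 in H1650. FANCI had ratios of 0.49, 0.40 and 0.65 in A549, H460 and H1975, a mean of 0.51 ± 0.13 (SD, n = 3) and -0.38 in H1650. With the mean of all its probe sets in place of the brightest, the 3 lines gave 0.33 (limma adjusted p = 0.262). FANCL, called between the lines, had ratios between -0.04 and 0.13. BLM had 9.46 in SP and 8.80 in MP of A549, 8.87 and 8.45 in H460, 8.56 and 8.89 in H1650 and 8.74 and 8.19 in H1975, and a mean ratio of 0.54 ± 0.12 in the 3 lines (SD, n = 3; limma adjusted p = 0.192).

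Sensing and checkpoint genes had median ratios of 0.18, -0.061 and 0.12 in A549, H460 and H1975 and -0.053 in H1650. CLSPN had the largest mean of the group in the 3 lines, with ratios of 0.45, 0.35 and 0.88 in A549, H460 and H1975 and -0.83 in H1650 (mean of the 3 0.56 ± 0.28, SD; limma adjusted p = 0.27). CHEK1 had 0.33, 0.40, 0.19 and -0.15 in the same lines. On the brightest probe sets ATR had ratios from -0.06 to 0.00 and ATM from -0.15 to 0.20. Further probe sets were wider, with 0.78 in H1650 and -0.39 in H1975 on an ATM set of nearly the same mean signal (9.40) and -0.25 in H460 on a second ATR set.

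The difference of H1650 from the other lines was tested as an interaction, chosen with that difference already seen in earlier results of these data. No gene of the 30 passed (41 of all genes did, 0.333%), and 9 of the 30 had an unadjusted p under 0.05 (30%, against 12.1% of all genes). Among the 16 genes described on every array, CLSPN had -1.39 (limma adjusted p = 0.19), BARD1 -1.01 (limma adjusted p = 0.21), and FANCI, with the smallest p of the 30, -0.89 (limma adjusted p = 0.12). The same test of the other lines gave 0 of the 30 after adjustment in A549, H460 and H1975 (0%, 0% and 0.0406% of all genes), and at an unadjusted p under 0.05 PALB2 in A549 (4.55% of all genes), 0 in H460 (2.17%) and EXO1 in H1975 (4.53%). Across the 30 genes the mean ratio of the 3 lines and the H1650 ratio had r = -0.41, against -0.32 across all 12312 tested genes, given as a description because all genes were read on the same 8 arrays.

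The cell cycle lists had the same signs. The G2 and M phase list of 28 genes had median ratios of 0.63, 0.41 and 0.92 in A549, H460 and H1975 and -0.65 in H1650, and 25 of the 28 held the pattern that 13 of the 30 repair genes held. The S phase list of 27 genes had 0.15, 0.049 and 0.47 and -0.24, with 15 of 27 in the pattern. The repair genes, at 0.26, 0.13, 0.29 and -0.24, lay closer to the S phase list than to the G2 and M phase list. How much of their ratios goes with the share of cycling cells was not tested.

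**Figure D5:**
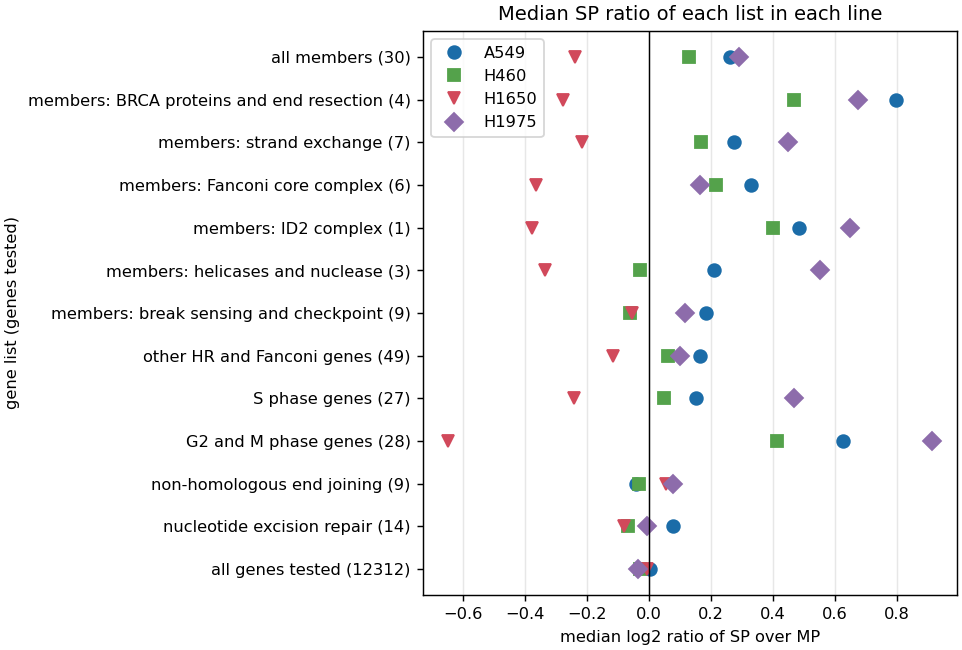
Median log2 ratio of SP over MP in each cell line for the repair gene groups, other repair lists, the S phase and G2 and M phase lists and all tested genes. The G2 and M phase list has the medians farthest from 0 in H1975 (0.92) and H1650 (-0.65), the 30 repair genes have 0.29 and -0.24 in these lines, and the medians of all genes stay near 0.

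A further 49 genes of homologous recombination and the Fanconi pathway, listed by function, were tested too. Of them 32 differed between the lines (65.3%, against 76.2% of all genes), and none differed between SP and MP in the 3 lines after adjustment (0.203% of all genes). An unadjusted p under 0.05 was found for 10 of the 49 (13.5% of all genes), and 33 of the 49 had a higher mean in SP (45% of all genes). The median ratios were 0.17, 0.063 and 0.10 in A549, H460 and H1975 and -0.12 in H1650. The 3 with the smallest F test p are named. ERCC1, a subunit of a nuclease that cuts at crosslinks, had 8.44 in SP and 8.64 in MP of H1975, against 10.5 to 11.2 in the other lines, a difference of -2.32 ± 0.16 (SE; limma adjusted p = 3.6e-05). RMI2, a partner of BLM, was higher in A549 (1.46 ± 0.14) and lower in H460 (-1.03 ± 0.14; limma adjusted p = 0.000233 and 0.000849). BRCC3, a deubiquitinase of the BRCA1-A complex, was lower in H1650 (-0.99 ± 0.10; limma adjusted p = 0.000197).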

How the data were processed

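The authors deposited log2 signal values from MAS5, one column per array, for the 54675 probe sets of the Affymetrix HG-U133 Plus 2.0 array. GCOS version 1.4 and MAS5 are named in the submitters' processing notes, and the study's methods name log2 transformation. Background subtraction and global scaling by MAS5 fix the mean of each array and leave low signals noisy, and detection calls were not used here. The 62 control probe sets were left out when the median signal for the filter was taken. The platform annotation gave 41097 probe sets 1 gene symbol, 1801 several and 11777 none, and only those with 1 symbol were named; 0 symbols changed on updating. Each gene is represented by its brightest probe set, and genes with a mean log2 signal of at least 6.00, the median over probe sets, were tested, 12312 of 19775.

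Tests used limma version 3.58.1 in R version 4.3.3 with a mean-variance trend and Benjamini-Hochberg adjustment over all tested genes at 0.05. SP was compared with MP with the cell line as a block, in 4 lines and without H1650. Lines were compared by an F test and by each line against the mean of the other 3, with population as a covariate. SP and MP were paired by cell line, and within a line the deviations of both arrays from the SP and MP means had correlations of 0.887 to 0.940. The steps were tested on simulated data with planted changes. For the H1650 interaction no least share of recovered changes was required, so its lack of calls does not show equal ratios. Precision is limited by there being only 8 arrays.

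Genes given on every array were the 8 with the largest distance between line means, the 6 with the largest mean ratio in the 3 lines, the 3 with the smallest distance between line means and BRCA1, ATM, ATR and CHEK1; others are named with their counts. The genes, lists and tests were chosen with earlier results of these data known. Alternatives were quantile and median scaling, a floor, a pseudocount, other signal filters, the mean of a gene's probe sets, no trend, no block and each array or line left out.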

Additional observations from a re-analysis of the deposited data

Results flagged for a closer look

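In 4 of 90 groups of 4 values (each gene's SP levels, MP levels and ratios over the lines) 1 value lay far from the others. Chance gives about 1 in 20, or 4.5 of the 90, so the number of flags was no higher than chance. BRCA1 in MP had a log2 signal of 9.33 in H1975, against 10.54 to 10.71 in the other lines. For XRCC3 the SP over MP ratio (log2) was 0.45 in H1975, against -0.22 to -0.13 elsewhere. RAD51AP1 in SP had a log2 signal of 11.17 in H460, against 11.43 to 11.48. FANCB had a log2 ratio of -0.44 in H1650, against 0.42 to 0.51 in the other lines.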

How the results depend on the processing

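None of the counts, medians and named contrasts followed across the alternatives changed direction. Ratios of some genes within a line did change sign under scaling to the same median. Genes with SP above MP then went from 27 to 22 in A549, 19 to 18 in H460, 23 to 27 in H1975 and 3 to 7 in H1650. The count of the 30 genes higher or lower in SP of A549, H460 and H1975 after adjustment was 0 in every setting except scaling to the same median, where it was 1 (BARD1, 0.74; limma adjusted p = 0.0352). Leaving out 1 array or line gave 3 to 11 called genes for A549 against the other lines, 2 to 10 for H460, 7 to 10 for H1650, 10 to 20 for H1975 and 13 to 21 between all lines. In the paired design, the fit with no replicate block called 0 of the 30 genes and 0 of all genes in the 3 lines. Over all genes the 25 calls of the 3 lines became 64 with a floor, 103 with a pseudocount, 179 with median scaling, 86 with a mean of at least 8, 0 with no trend, and 2, 6 and 60 without A549, H460 and H1975. The 41 calls of the H1650 interaction became 66, 75, 132 and 80 under the floor, pseudocount, median scaling and mean of at least 8, 0 with quantile scaling, no filter or no trend, and 1, 6 and 121 without A549, H460 and H1975. The 0 calls of the 4 lines became 25 without H1650. With 1 array left for a line, all-gene calls were 3133 and 2916 of 5378 in A549, 3654 and 3522 of 6276 in H460 and 4155 of 6390 without the H1975 MP array. The causes were not tested. The median ratio of the 30 genes in the 3 lines lay between 0.16 and 0.27, and no gene's mean there changed sign under any scaling. With 1 array per line and population, no error can be given for a ratio within a line.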

Other observations

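The 9 tested genes of non-homologous end joining, which rejoins ends without a template, had median ratios of -0.042 (A549), -0.030 (H460), 0.077 (H1975) and 0.056 (H1650), and 3 of them differed between the lines, where 76.2% of all tested genes did. The 14 tested genes of nucleotide excision repair, which removes bulky lesions, had median ratios from -0.081 to 0.077, and 13 of them differed between the lines by the limma F test after adjustment, against the same 76.2%. Of the 4 mismatch repair genes tested, 2 were called lower and 0 higher in H1650 (25.8% and 25.1% of all genes), 0 lower and 2 higher in H460 (26.8% and 24.1%), 1 lower and 1 higher in A549 (21.3% and 22.4%), and 0 lower and 1 higher in H1975 (23.8% and 28.1%).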
